A study of Mus musculus with 8 samples.

Results

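The 10 genes described here carry out iron handling in the liver: the hepcidin genes Hamp and Hamp2, the transferrin gene Trf, the transferrin receptor genes Tfrc and Tfr2, the iron exporter gene Slc40a1 (ferroportin), the ligand gene Bmp6, its pathway inhibitor gene Smad7, and the ferritin subunit genes Fth1 and Ftl1. They were taken by symbol from a table of 55487 genes, each matched 1 row, and all 10 passed the filter on low counts that left 15598 genes for testing. RNA came from whole livers of 8 mice, 1 library each, labelled female. Group WT held 4 mice aged 10.7, 12.3, 11.1 and 11.8 weeks. Group Ercc1 -/D held 2 mice aged 15.1 and 13.7 weeks, with a null and a hypomorphic allele of Ercc1, a subunit of the nuclease that excises bulky and crosslinked DNA damage. Group NEMO DK Ercc1-/D held 2 mice, both 11.8 weeks old, with the same Ercc1 genotype and a NEMO allele called DK in the labels, which do not explain the term or say in which cells it acts. The Ikbkg gene encodes NEMO, which holds together the kinase complex that switches on NF-kB. The Ercc1 -/D mice were older than every other mouse, so age and genotype cannot be told apart in that group. In liver homogenate a change in the number of cells of a type and a change of RNA per cell cannot be told apart either.

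Libraries held 21556570 to 27812480 counts. The level of Ercc1 transcript ran from 2.57 to 5.04 CPM in the WT livers, above the 1.49 to 1.87 CPM of the 4 mutant livers, with CPM a library's counts scaled to a common depth by TMM factors. Albumin and the other hepatocyte markers summed to 81697 to 135387 CPM over the 8 libraries. WT library 3 stood apart from its label: Xist, the RNA of the inactive X chromosome, had 0 counts there and 9331 to 15744 elsewhere, while 4 Y-linked genes had 3087 counts there and at most 10 elsewhere. It is kept as labelled, and some results are also given without it.

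Hepcidin is a peptide hormone made by hepatocytes that binds ferroportin, the only known cellular iron exporter, and causes its degradation, so iron stays inside gut cells and macrophages. Its gene is driven by BMP ligands from sinusoidal endothelial cells, which signal through SMAD proteins when liver iron rises, and by IL-6 through STAT3 during inflammation. Mice carry a second copy, Hamp2, that is not known to regulate ferroportin and is expressed more in female than in male liver. Inside cells, iron regulatory proteins bind stem-loops called iron-responsive elements: in a 5′ UTR they block translation, and in the 3′ UTR of Tfrc they protect the transcript from decay.

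The promoters of the hepcidin pair are shown because the copies are near-identical yet had different values below. The 250 bases before each start site come from RefSeq (GRCm38.p6, minus strand), at chr7:30944030-30944279 for Hamp and chr7:30924182-30924431 for Hamp2. Capitals mark the BMP-responsive letters GGCGCC, the STAT letters TTCNNNGAA and the AP-1 letters TGAGTCA, each searched on both strands without overlap between them.
Hamp: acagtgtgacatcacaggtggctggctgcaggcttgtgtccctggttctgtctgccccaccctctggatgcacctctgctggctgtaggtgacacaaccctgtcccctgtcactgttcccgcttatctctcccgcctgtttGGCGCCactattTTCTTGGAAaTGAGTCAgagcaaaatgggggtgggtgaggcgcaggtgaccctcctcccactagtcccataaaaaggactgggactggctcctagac
Hamp2: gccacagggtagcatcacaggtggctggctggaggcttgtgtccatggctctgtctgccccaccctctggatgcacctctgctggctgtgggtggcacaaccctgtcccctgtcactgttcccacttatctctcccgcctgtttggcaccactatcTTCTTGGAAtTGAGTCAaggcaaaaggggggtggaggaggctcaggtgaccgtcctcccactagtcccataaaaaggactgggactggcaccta
Over 247 aligned bases, 227 were identical (91.9%). Hamp held GGCGCC 109 bases before its start, while Hamp2 had GGCACC in its place, the substitution G4A counted from the first base of GGCGCC in Hamp. Both held the STAT and AP-1 letters. Among 32851 RefSeq promoter windows of this length, 9.59% held GGCGCC, 7.02% TTCNNNGAA and 4.46% TGAGTCA on either strand. Of the other members with a window in the table, Tfrc held GGCGCC in 1 of 2 windows, and Tfr2, Bmp6, Fth1 and Ftl1 held none of the 3. These matches are letters, not shown sites.

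Iron-responsive elements are shown because they divide the members into transcripts whose stability or whose translation follows iron. They were searched in GENCODE M21 transcripts (GRCm38) as a C, 5 bases, the loop CAGTGN with any last base but G, and 5 bases pairing back, with at least 4 of 5 pairs in the stem below. Capitals mark the loop.
Fth1 5′ UTR: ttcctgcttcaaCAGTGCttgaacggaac
Ftl1 5′ UTR: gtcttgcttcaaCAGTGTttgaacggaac
Slc40a1 5′ UTR: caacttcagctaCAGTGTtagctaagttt
Tfrc 3′ UTR: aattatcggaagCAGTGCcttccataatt
They lie at chr19:9982732-9982760 (plus strand), chr7:45459779-45459807 (minus), chr1:45925465-45925493 (minus) and chr16:32631219-32631247 (plus). Tfrc held 4 such matches in its 3′ UTR, Fth1, Ftl1 and Slc40a1 held 1 each in the 5′ UTR, and none was found by these rules in the other 6 members. RNA counts can follow the stability of Tfrc transcript but not the translation of the ferritin or ferroportin transcripts.

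In Ercc1 -/D livers the SMAD inhibitor gene Smad7 was higher than in WT, and in NEMO DK Ercc1-/D livers Smad7 was higher and the transferrin gene Trf lower. The Smad7 call in Ercc1 -/D and the Trf call ended when certain single libraries were left out, as given below. The Smad7 call in NEMO DK Ercc1-/D did not. The main hepcidin gene Hamp was not called in any comparison, whereas its copy Hamp2 fell in both mutant groups once WT library 3, which also had little Hamp2, was left out. The ferritin heavy chain gene Fth1 stayed between 1057 and 1286 CPM in all 8 libraries. Tested with edgeR's quasi-likelihood method across 15598 genes (Benjamini-Hochberg adjusted p under 0.05), 1 of the 10 members was called higher and 0 lower in Ercc1 -/D against WT, where 20.8% of all genes were called (11.3% higher, 9.50% lower). In NEMO DK Ercc1-/D against WT, 1 was higher and 1 lower, where 18.0% of all genes were called (10.6% higher, 7.40% lower). Both shares of members called, 1 and 2 of 10, are near these backgrounds. Without WT library 3 the counts were 1 higher and 2 lower in each comparison, where 21.9% of all genes were called in Ercc1 -/D (11.9% higher, 10.1% lower) and 19.4% in NEMO DK Ercc1-/D (10.8% higher, 8.64% lower). Between NEMO DK Ercc1-/D and Ercc1 -/D, edgeR called 0 members and 0% of all genes. At unadjusted p under 0.05 it found 2 members and 1062 genes (6.81%), and DESeq2 called 0 members and 69 genes. The median log2 fold change of the members was -0.12, 0.18 and -0.001 in the respective comparisons (Ercc1 -/D against WT, NEMO DK Ercc1-/D against Ercc1 -/D, NEMO DK Ercc1-/D against WT), beside -0.001, 0.02 and 0.003 over all tested genes. Groups did not overlap for 5 of the 10 members in Ercc1 -/D against WT (42.6% of all genes), 4 in NEMO DK Ercc1-/D against WT (46.9%) and 6 between the mutant groups (42.8%). The share of all genes in which all 4 mutant livers lay on 1 side of all 4 WT livers is not given. Separations of that kind named for single genes below are descriptions. Both comparisons against WT share the same 4 control libraries.

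**Figure D1:**
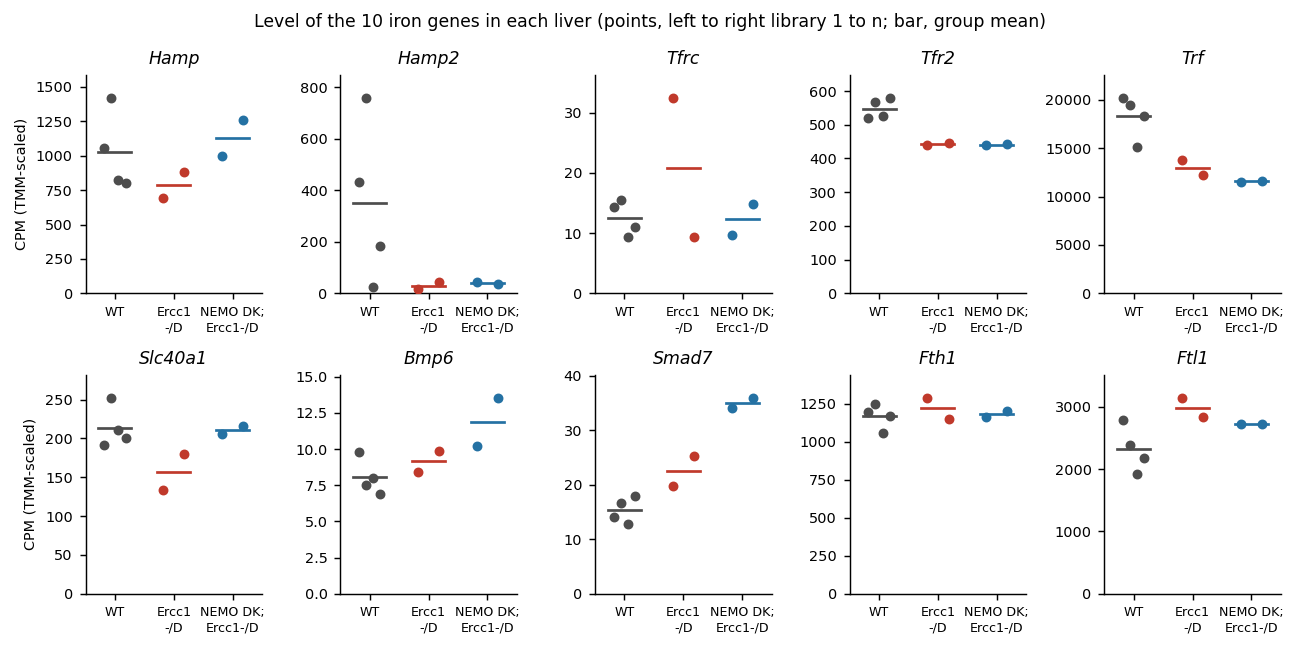
Depth-normalized level (CPM, TMM-scaled, linear axis from 0) of each of the 10 genes in the 4 WT, 2 Ercc1 -/D and 2 NEMO DK Ercc1-/D livers, with 1 point per mouse and a bar at the group mean. Smad7 lies at 12.9 to 17.9 CPM in the WT livers and 19.8 to 35.9 CPM in the others, while Tfrc is set apart by 1 Ercc1 -/D library at 32.4 CPM.

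**Figure D2:**
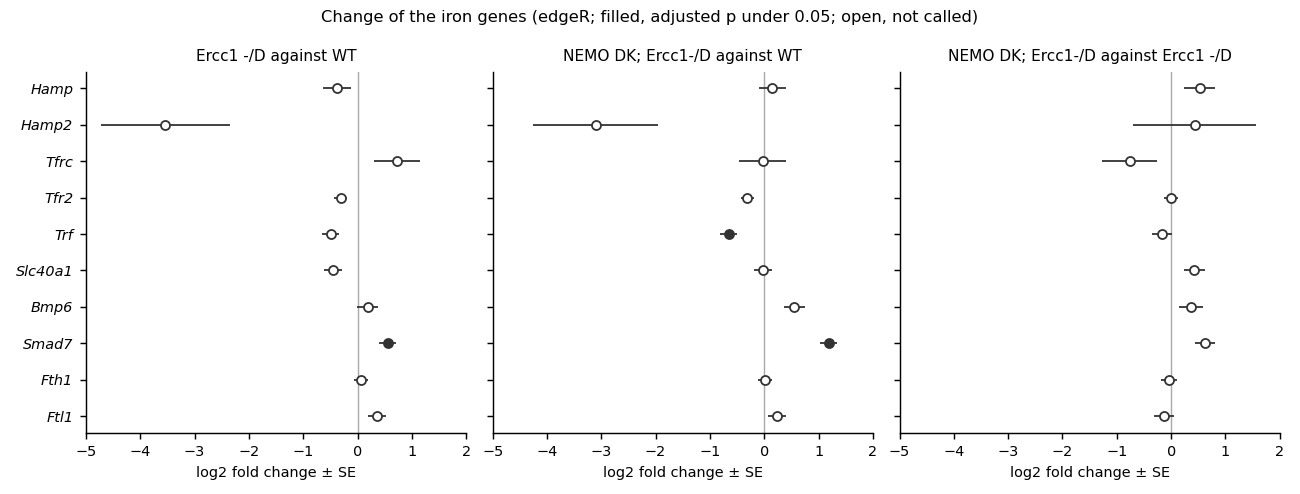
Log2 fold change with its standard error for each of the 10 genes in the 3 comparisons (edgeR quasi-likelihood). Filled points have an adjusted p under 0.05: Smad7 in both comparisons against WT and Trf in NEMO DK Ercc1-/D against WT.

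Hamp (ENSMUSG00000050440, chr7:30942368-30944032) was 1059, 1419, 820 and 800.0 CPM in WT libraries 1 to 4, 694 and 879 CPM in Ercc1 -/D, and 1001 and 1261 CPM in NEMO DK Ercc1-/D. Both mutant groups lay within or next to the WT range, and the NEMO DK Ercc1-/D mice lay above the Ercc1 -/D mice. The log2 fold change was -0.38 ± 0.25 (SE) in Ercc1 -/D against WT (edgeR adjusted p = 0.317), 0.14 ± 0.25 in NEMO DK Ercc1-/D against WT (adjusted p = 0.728) and 0.52 ± 0.29 between the mutant groups (adjusted p = 0.778). The 95% intervals of these changes ran from -0.96 to 0.20, from -0.42 to 0.71 and from -0.14 to 1.18.

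Hamp2 (ENSMUSG00000056978, chr7:30922372-30924681) was 433, 758, 23.2 and 183 CPM in WT libraries 1 to 4, 16.2 and 43.9 CPM in Ercc1 -/D, and 45.9 and 35.3 CPM in NEMO DK Ercc1-/D. All 4 mutant livers were below WT libraries 1, 2 and 4, and WT library 3 fell among the mutant livers. With all libraries the log2 fold change was -3.54 ± 1.18 in Ercc1 -/D (adjusted p = 0.0655) and -3.11 ± 1.15 in NEMO DK Ercc1-/D (adjusted p = 0.0960). Without WT library 3 it was -3.92 (adjusted p = 0.00505) and -3.50 (adjusted p = 0.00830). DESeq2 called both with all libraries (adjusted p = 0.0131 and 0.0356), as did edgeR with no filter on low counts (0.00155 and 0.00454). By edgeR, Hamp2 was not called with RLE factors (adjusted p = 0.0653 and 0.0941), upper-quartile factors (0.0688 and 0.105) or library size alone (0.0633 and 0.0948). Of all alternatives, 5 of 18 called it in Ercc1 -/D, counting averages of both mutant groups against WT. In NEMO DK Ercc1-/D, 3 of 16 did. Between the mutant groups the difference was 0.43 ± 1.14 (adjusted p = 0.962, 95% interval -2.15 to 3.02).

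Hamp2 made up 29.04% of the joint hepcidin counts in WT library 1, 34.8% in library 2, 2.75% in library 3 and 18.6% in library 4. The share was 2.28 and 4.75% in Ercc1 -/D and 4.38 and 2.72% in NEMO DK Ercc1-/D, with exact 95% binomial limits of 2.08 to 2.501% for the lowest, which cover counting error only. Hamp and Hamp2 together gave 1374 ± 604 CPM in WT (SD, n = 4), 817 ± 151 in Ercc1 -/D (n = 2) and 1171 ± 177 in NEMO DK Ercc1-/D (n = 2). How reads that the copies share were counted is not given, so the split between them is uncertain, and their sum may be too.

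Because Hamp2 is known to be higher in female mice, 7 genes known for higher expression in female mouse liver were set beside it, a list written after the Hamp2 values were seen (A1bg, Cyp2b9, Cyp3a41a, Cyp3a44, Cux2, Prom1 and Sult3a1). They summed to 4217, 3747, 4.15 and 3432 CPM in WT libraries 1 to 4, 1329 and 643 CPM in Ercc1 -/D, and 679 and 875 CPM in NEMO DK Ercc1-/D. With all libraries 0 of the 7 were called by edgeR in either comparison against WT. Without WT library 3, 5 of 7 were lower and 0 higher in Ercc1 -/D, and 5 lower and 0 higher in NEMO DK Ercc1-/D. A list of 7 male-biased genes, chosen in the same way (Cyp2d9, Cyp4a12a, Cyp7b1, Elovl3, Hsd3b5, Mup20 and Slco1a1), summed to 4272 CPM in WT library 3, 350 to 485 CPM in the other WT libraries and 448 to 947 CPM in the mutant livers. With all libraries 0 of these were called by edgeR in Ercc1 -/D, and 0 were higher and 1 lower in NEMO DK Ercc1-/D. Without WT library 3 the male-biased genes split, with 3 higher and 2 lower in each comparison. Mup20 (5.05 in Ercc1 -/D and 4.66 in NEMO DK Ercc1-/D, log2 fold change), Cyp4a12a (6.66 and 6.93) and Cyp2d9 (2.04 and 2.48) were higher, and Hsd3b5 (-3.50 and -4.38) and Cyp7b1 (-1.29 and -1.65) lower. Several genes of both lists belong to families of near-identical copies, so their counts are uncertain. The part of sex-biased expression in the Hamp2 values was not tested.

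**Figure D3:**
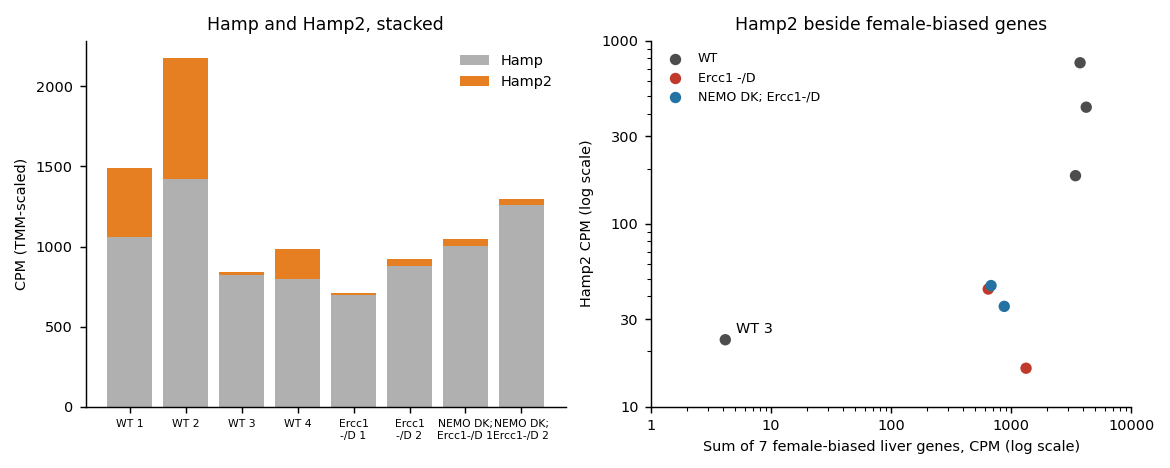
Left, stacked Hamp and Hamp2 level (CPM, linear axis from 0) in each of the 8 livers. Right, Hamp2 level against the summed level of 7 female-biased liver genes, 1 point per liver, both axes logarithmic: WT library 3 is far left at 4.15 CPM, and the 4 mutant livers lie between it and the other WT livers on the horizontal axis.

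Profiles over the 8 libraries were compared by the root mean square difference of centred log2 CPM among 11875 other genes with an average log2 CPM of at least 1. The closest to Hamp were Tnfrsf1b (0.13), Bdh2 (0.13) and Fam234b (0.15), against a spread of 0.33 for Hamp itself. The closest to Hamp2 were Cyp2b10 (0.70) and the pseudogenes Mup-ps2 (0.77) and Mup-ps10 (0.94), against 1.91 for Hamp2. For Bmp6, with a spread of 0.29, they were Tmem106c, Tob1 and Cttnbp2nl (each 0.11). For Tfrc, with 0.56, they were Prelid2 (0.20), Ppard (0.25) and Pdss1 (0.26). These are descriptions of 8 libraries.

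Bmp6 (ENSMUSG00000039004, chr13:38345107-38500302), the iron-induced ligand that drives hepcidin, was 9.83, 7.504, 8.03 and 6.87 CPM in WT, 8.43 and 9.88 CPM in Ercc1 -/D, and 10.2 and 13.5 CPM in NEMO DK Ercc1-/D. The NEMO DK Ercc1-/D mice were above every WT mouse, whereas Ercc1 -/D overlapped WT. The log2 fold change was 0.18 ± 0.19 in Ercc1 -/D (adjusted p = 0.522) and 0.56 ± 0.19 in NEMO DK Ercc1-/D (adjusted p = 0.0720), the latter called in 4 of 17 alternatives: without WT library 1 (0.66, adjusted p = 0.0473), with upper-quartile factors (0.65, adjusted p = 0.0449), with age in the model (0.63, adjusted p = 0.0425) and with library size alone (0.82, adjusted p = 0.0124). With upper-quartile factors and library size alone the median of all genes moved too, to 0.10 and 0.27, and Bmp6 lay 0.55 above it in both. Set against Ercc1 -/D, NEMO DK Ercc1-/D had a change of 0.37 ± 0.22 (edgeR adjusted p = 0.789). Bmp6 has exons that overlap those of Txndc5 on the other strand, which had 167 to 247 CPM, so Bmp6 is uncertain if reads were not counted by strand.

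Smad7 (ENSMUSG00000025880), an inhibitor of BMP and TGF-beta receptors that is itself induced by SMAD signaling and represses hepcidin, was 13.997, 16.7, 12.9 and 17.9 CPM in WT, 19.8 and 25.3 CPM in Ercc1 -/D, and 34.0 and 35.9 CPM in NEMO DK Ercc1-/D. The 3 groups did not overlap and lay in that order. Smad7 rose by 1.19 ± 0.16 in NEMO DK Ercc1-/D against WT, or 2.27-fold (adjusted p = 0.00221), a call kept with each of the 8 libraries left out in turn. It rose by 0.55 ± 0.16 in Ercc1 -/D, or 1.47-fold (adjusted p = 0.0393). That call ended without Ercc1 -/D library 1 (0.72, adjusted p = 0.0581), Ercc1 -/D library 2 (0.36, 0.247), NEMO DK Ercc1-/D library 1 or 2 (both 0.55, 0.0701) or WT library 1 (0.52, 0.0686), with only the 2 groups compared (0.56, 0.0696) and with age in the model (0.44, 0.619). Between the mutant groups the change was 0.63 ± 0.18 (unadjusted p = 0.00793, adjusted p = 0.637).

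Of 7 other genes induced by BMP-SMAD signaling, 3 were higher and 0 lower in Ercc1 -/D against WT (Id1, Id2 and Id3, inhibitors of helix-loop-helix transcription factors), with a list median of 0.85, and 2 were higher and 0 lower in NEMO DK Ercc1-/D (Id1 and Id3), with a median of 0.67. Counts from each gene or marker list stand beside 20.8% of all genes called in Ercc1 -/D (11.3% higher, 9.50% lower). In NEMO DK Ercc1-/D the share was 18.0% (10.6% higher, 7.40% lower). Id1, the usual companion of hepcidin in this response, was 8.81, 12.6, 6.20 and 17.3 CPM in WT, 42.7 and 50.0 CPM in Ercc1 -/D, and 67.9 and 64.5 CPM in NEMO DK Ercc1-/D. No mutant liver overlapped WT. Id1 rose by 2.04 ± 0.32 (adjusted p = 0.00374) and 2.56 ± 0.32 (adjusted p = 0.00179), and both calls were kept with each library left out in turn. Id3 rose from 74.4 ± 17.8 CPM in WT (SD, n = 4) to 150 ± 6.93 in Ercc1 -/D (n = 2; adjusted p = 0.00910, ended without library 1 of that group, 0.0680), and Id2 from 128 ± 25.8 to 244 ± 9.42 (adjusted p = 0.0124, ended without library 1, 0.0653, or 2, 0.0672). The Id3 call in NEMO DK Ercc1-/D (0.67 ± 0.20, adjusted p = 0.0491) was kept in 1 of 8 such fits. Without WT library 3, edgeR called Id2 higher in NEMO DK Ercc1-/D (0.77, adjusted p = 0.0141) and did not call Id3 (0.56, adjusted p = 0.0557). Atoh8 and Smad6, named after their values were seen because both are further companions of hepcidin, had changes of 0.85 ± 0.26 (adjusted p = 0.0514) and 0.08 ± 0.15 (adjusted p = 0.729) in Ercc1 -/D, and 0.87 ± 0.26 (0.0527) and 0.14 ± 0.15 (0.544) in NEMO DK Ercc1-/D. Id genes respond to several other signals, and the cell type behind these counts was not determined.

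Sinusoidal endothelial markers, the cells that make BMP6, summed to 357 to 390 CPM in WT, 304 and 378 CPM in Ercc1 -/D and 356 and 391 CPM in NEMO DK Ercc1-/D. Of the 9, 1 was higher and 2 lower in Ercc1 -/D, and 1 higher and 1 lower in NEMO DK Ercc1-/D. Their part in the values of Bmp6 and Smad7 was not tested.

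Among 17 tested genes of BMP sensing and hepcidin control, 3 were higher and 5 lower in Ercc1 -/D against WT (list median -0.32), and 2 higher and 3 lower in NEMO DK Ercc1-/D (median -0.25). Hfe, the partner of transferrin receptors in iron sensing, rose from 46.3 ± 2.97 CPM in WT to 72.4 ± 0.37 in Ercc1 -/D (0.65 ± 0.10, adjusted p = 0.00356, kept with each library left out) and 62.7 ± 0.35 in NEMO DK Ercc1-/D (0.44 ± 0.10, adjusted p = 0.0192, ended without library 1, 0.142, or 2, 0.149, of that group). Inhbb, the activin B subunit gene that can drive hepcidin in inflammation, rose from 0.68 ± 0.33 to 3.90 ± 1.48 CPM in Ercc1 -/D (2.49 ± 0.39, adjusted p = 0.00396, kept with each library left out). In NEMO DK Ercc1-/D it was 1.84 ± 0.09 CPM (1.41 ± 0.41, adjusted p = 0.0460, kept in 2 of 8 such fits). Hjv, the BMP co-receptor hemojuvelin, rose by 0.73 ± 0.18 in Ercc1 -/D (adjusted p = 0.0240, ended without WT library 4, 0.0563, Ercc1 -/D library 1, 0.0833, or 2, 0.127).

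The 5 genes that fell in Ercc1 -/D were those of the BMP type II receptors Acvr2a (-0.70 ± 0.18, adjusted p = 0.0260) and Bmpr2, the mediators Smad4 (-0.41 ± 0.11, adjusted p = 0.0309) and Smad5, and the protease Furin. Bmpr2, Smad5 and Furin are named after their values were seen. Smad4 also fell in NEMO DK Ercc1-/D (-0.48 ± 0.11, adjusted p = 0.0198), with Furin (-0.53 ± 0.14, adjusted p = 0.0374) and Tmprss6 (-0.48 ± 0.14, adjusted p = 0.0494), the protease that cuts hemojuvelin. In Ercc1 -/D the calls of Smad4, Smad5, Bmpr2 and Furin were each kept in 1 of 8 leave-one-out fits, and that of Acvr2a ended without WT library 1 (adjusted p = 0.0553) or Ercc1 -/D library 1 (0.110) or 2 (0.124). Of the NEMO DK Ercc1-/D calls, that of Tmprss6 was kept in 1 of 8 such fits (adjusted p up to 0.263), that of Furin in 4 (up to 0.236) and that of Smad4 in 6, ending without library 1 (0.173) or 2 (0.123) of that group. In Ercc1 -/D without WT library 3 the list held 3 higher and 2 lower, and in NEMO DK Ercc1-/D 1 higher and 3 lower. The 2 lower in Ercc1 -/D were Acvr2a (-0.61, edgeR adjusted p = 0.0411) and Tmprss6 (-0.45, adjusted p = 0.0359), the latter not called there with all libraries.

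**Figure D4:**
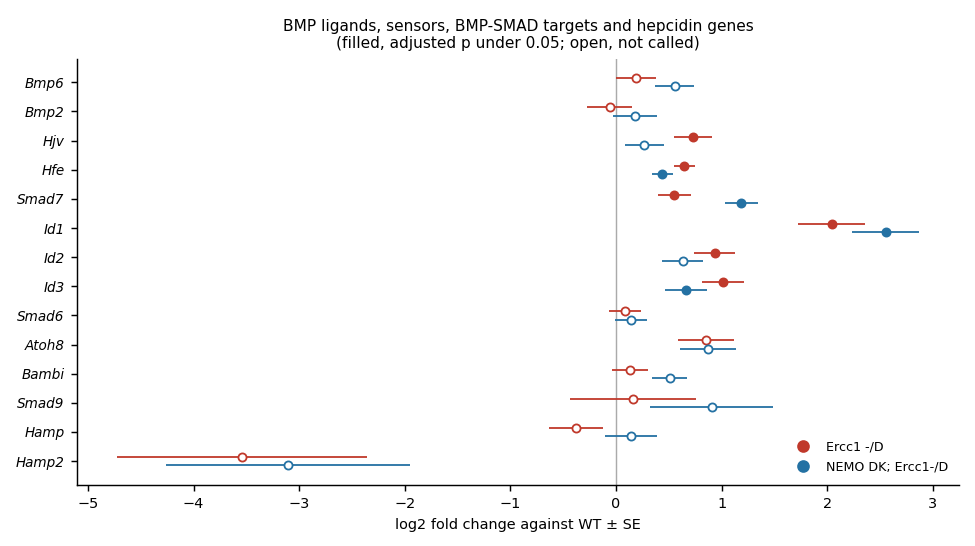
Log2 fold change against WT with its standard error for BMP ligands, iron sensors, BMP-SMAD target genes and the hepcidin genes, red for Ercc1 -/D and blue for NEMO DK Ercc1-/D. Filled points have an adjusted p under 0.05. Among the genes plotted, which do not include Inhbb, Id1 lies farthest to the right at 2.04 and 2.56, while Hamp lies at -0.38 and 0.14.

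In the IL-6 and STAT3 arm, 1 of 7 tested genes was higher and 1 lower in each comparison against WT (list medians -0.20 and -0.06). Il6ra, the IL-6 receptor chain through which hepatocytes sense the cytokine, was 71.8, 129, 71.8 and 77.0 CPM in WT, 21.1 and 19.8 CPM in Ercc1 -/D, and 35.5 and 40.9 CPM in NEMO DK Ercc1-/D. Every mutant liver was below every WT liver. Il6ra fell by 2.096 ± 0.27 in Ercc1 -/D (adjusted p = 0.00177, kept with each library left out) and fell by 1.20 ± 0.25 in NEMO DK Ercc1-/D (adjusted p = 0.0151, ended without library 1, 0.136, or 2, 0.0927). Socs3, a feedback inhibitor induced by STAT3, rose from 10.7 ± 3.94 CPM to 26.1 ± 1.09 in Ercc1 -/D (adjusted p = 0.0383) and 26.0 ± 14.4 in NEMO DK Ercc1-/D (adjusted p = 0.0422), calls kept in 3 and 2 of 8 leave-one-out fits. Il6 itself was too low to test (at most 0.038 CPM as a group mean). Acute-phase genes, 11 secreted or binding proteins of inflammation, summed to 13807 to 16551 CPM in WT, 13615 and 14860 CPM in Ercc1 -/D, and 11323 and 12200 CPM in NEMO DK Ercc1-/D. Of these, 3 were higher and 1 lower in Ercc1 -/D, and 3 higher and 2 lower in NEMO DK Ercc1-/D.

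Trf (ENSMUSG00000032554, chr9:103204001-103230444), the plasma iron carrier made by hepatocytes, was 20171, 19456, 15131 and 18318 CPM in WT, 13737 and 12174 CPM in Ercc1 -/D, and 11515 and 11638 CPM in NEMO DK Ercc1-/D. All mutant livers were below all WT livers, and WT library 3 was the lowest of the WT livers. Non-overlap is common in these data, with 42.6% and 46.9% of all genes in the respective comparisons against WT. Trf fell by 0.66 ± 0.16 in NEMO DK Ercc1-/D (adjusted p = 0.0270). The call ended without WT library 4 (-0.66, adjusted p = 0.0503), NEMO DK Ercc1-/D library 1 (-0.65, 0.177) or library 2 (-0.67, 0.167), and with upper-quartile factors (-0.56, 0.0525) or library size alone (-0.39, 0.0770). In Ercc1 -/D the change was -0.50 ± 0.16 (adjusted p = 0.0611), and without WT library 3 Trf fell by 0.56 (adjusted p = 0.0351). DESeq2 called it with all libraries (adjusted p = 0.0102). The hepatocyte markers moved with Trf: they summed to 106546 to 135387 CPM in WT, 83369 and 86627 CPM in Ercc1 -/D, and 81697 and 82136 CPM in NEMO DK Ercc1-/D, with 4 of 8 lower and 0 higher in each comparison against WT. Their part in the Trf values was not tested.

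Tfr2 (ENSMUSG00000029716, chr5:137569840-137587481), the hepatocyte sensor of iron-loaded transferrin, was 519.5, 567, 526 and 579 CPM in WT, 441 and 445 CPM in Ercc1 -/D, and 441 and 442 CPM in NEMO DK Ercc1-/D. The mutant livers lay close together and below every WT liver. The change was -0.31 ± 0.12 in each comparison against WT (adjusted p = 0.0990 and 0.103, or 0.0220 and 0.0145 with DESeq2), and -0.004 ± 0.14 between the mutant groups (adjusted p = 0.999, 95% interval -0.31 to 0.30). Its size against WT depended on the scaling. In edgeR it was -0.23 and -0.21 with upper-quartile factors (adjusted p = 0.200 and 0.251). With library size alone it was -0.04 in each (adjusted p = 0.818 and 0.808), where the median of all genes had moved to 0.26 and 0.27. Set against that median, Tfr2 lay at -0.31 in Ercc1 -/D and -0.32 in NEMO DK Ercc1-/D under both of these scalings. With TMM factors and both mutant groups averaged against WT, the edgeR change of Tfr2 was -0.31 ± 0.10 (adjusted p = 0.0413). In that average Smad7 was called higher and Hamp2, Tfr2 and Trf lower, where 28.8% of all genes were called (14.9% higher, 13.9% lower).

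Tfrc (ENSMUSG00000022797, chr16:32608920-32632794), which imports transferrin iron in dividing and iron-poor cells, was 14.3, 15.5, 9.34 and 11.0 CPM in WT, 32.4 and 9.30 CPM in Ercc1 -/D, and 9.76 and 14.8 CPM in NEMO DK Ercc1-/D. Ercc1 -/D library 1 was the highest of all and library 2 the lowest of all. The change in Ercc1 -/D was 0.73 ± 0.42 (adjusted p = 0.248), -0.43 without library 1 (adjusted p = 0.451) and 1.37 without library 2 (adjusted p = 0.0270), so its direction rests on 1 mouse. It was -0.03 ± 0.44 in NEMO DK Ercc1-/D (adjusted p = 0.970). Proliferation markers summed to 105 CPM in that Ercc1 -/D library 1, 79.3 CPM in library 2, 61.4 and 76.8 CPM in NEMO DK Ercc1-/D and 32.1 to 56.3 CPM in WT. Of the 10, 6 were higher in Ercc1 -/D and 1 in NEMO DK Ercc1-/D, and their part was not tested.

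Slc40a1 (ENSMUSG00000025993, chr1:45908068-45926523), the exporter through which hepatocytes and macrophages release iron, was 192, 252, 211 and 201 CPM in WT, 134 and 179 CPM in Ercc1 -/D, and 206 and 216 CPM in NEMO DK Ercc1-/D. The Ercc1 -/D livers were below all others, and the NEMO DK Ercc1-/D livers lay inside the WT range. By edgeR the change was -0.45 ± 0.17 in Ercc1 -/D (adjusted p = 0.0864) and -0.02 ± 0.16 in NEMO DK Ercc1-/D (adjusted p = 0.948). Between the mutant groups it was 0.43 ± 0.19 (unadjusted p = 0.0490, adjusted p = 0.730). DESeq2 called Slc40a1 lower in Ercc1 -/D with all libraries (adjusted p = 0.0442), the only 1 of 19 alternatives that did. Markers of Kupffer cells, the resident macrophages that recycle iron from red cells, summed to 233 to 495 CPM in WT, 370 and 616 CPM in Ercc1 -/D, and 585 and 626 CPM in NEMO DK Ercc1-/D. Of the 8, 1 was higher and 0 lower in Ercc1 -/D, and 2 higher and 0 lower in NEMO DK Ercc1-/D. The 7 markers of recruited macrophages summed to 9.57 to 15.2 CPM in the WT livers and 31.2 to 47.2 CPM in the 4 others, with 7 higher in Ercc1 -/D and 6 in NEMO DK Ercc1-/D. The part of either cell type in the Slc40a1 values was not tested.

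Of 10 tested genes of iron uptake, oxidation and export, 2 were higher and 2 lower in Ercc1 -/D against WT, and 1 higher and 3 lower in NEMO DK Ercc1-/D. Slc39a14, the hepatocyte importer of iron not bound to transferrin, fell from 319 ± 18.6 CPM to 174 ± 15.7 in Ercc1 -/D (-0.87 ± 0.13, adjusted p = 0.00295, kept with each library left out) and 228 ± 2.86 in NEMO DK Ercc1-/D (-0.48 ± 0.12, adjusted p = 0.0301, ended without WT library 4, 0.0590, or either library of the group, 0.197 and 0.208). The metalloreductase gene Steap2 fell from 8.17 ± 1.39 to 1.47 ± 0.37 and 1.68 ± 0.93 CPM (-2.47 ± 0.35, adjusted p = 0.00284, and -2.26 ± 0.35, adjusted p = 0.00429), calls kept with each library left out. Its relatives went the other way: Steap4 rose by 0.54 ± 0.14 (adjusted p = 0.0280) and 0.58 ± 0.14 (adjusted p = 0.0234), each kept in 5 of 8 leave-one-out fits. Steap3 rose by 0.90 ± 0.17 in Ercc1 -/D (adjusted p = 0.00892, ended without library 1, 0.0773), and had 0.53 ± 0.18 in NEMO DK Ercc1-/D (adjusted p = 0.0715). Slc11a2, which moves iron out of endosomes, fell by 0.71 ± 0.14 in NEMO DK Ercc1-/D (adjusted p = 0.0113, ended without library 1, 0.128, or 2, 0.0692) and had -0.12 ± 0.14 in Ercc1 -/D (adjusted p = 0.561).

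Fth1 (ENSMUSG00000024661, chr19:9980598-9985098), the ferritin subunit that oxidizes iron for storage, was 1196, 1247, 1057 and 1169.5 CPM in WT, 1286 and 1152 CPM in Ercc1 -/D, and 1162 and 1201 CPM in NEMO DK Ercc1-/D. The groups overlapped. The changes were 0.06 ± 0.13 (adjusted p = 0.763, 95% interval -0.23 to 0.36) and 0.02 ± 0.13 (adjusted p = 0.941, 95% interval -0.28 to 0.31).

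Ftl1 (ENSMUSG00000050708, chr7:45457944-45459884), the light subunit, was 2787, 2382, 1928 and 2180 CPM in WT, 3137 and 2837 CPM in Ercc1 -/D, and 2726 and 2723 CPM in NEMO DK Ercc1-/D. The Ercc1 -/D livers were above every WT liver, while WT library 1 exceeded the NEMO DK Ercc1-/D livers. The changes were 0.37 ± 0.16 (adjusted p = 0.148) and 0.23 ± 0.16 (adjusted p = 0.358). The count ratio of Ftl1 to Fth1 was 2.33, 1.91, 1.82 and 1.86 in WT, 2.44 and 2.46 in Ercc1 -/D, and 2.35 and 2.27 in NEMO DK Ercc1-/D. The 5 ferritin pseudogenes set beside them summed to 2.49 to 5.68 CPM in every library, so reads assigned to them are few.

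The other iron gene lists are short, and their counts stand beside the 20.8% and 18.0% of all genes called in Ercc1 -/D and NEMO DK Ercc1-/D against WT. The 4 tested genes of iron storage and chaperones besides Fth1 and Ftl1 include Ftl1-ps1 of the pseudogene list above. Of these 4, the iron chaperone gene Pcbp2 fell in Ercc1 -/D (-0.43 ± 0.12, adjusted p = 0.0389, kept in 2 of 8 leave-one-out fits) and 0 were called in NEMO DK Ercc1-/D by edgeR. Of 5 genes of the iron regulatory proteins, their turnover and their targets, 0 rose and 2 fell in each comparison: Epas1, the hypoxia factor HIF-2alpha whose transcript carries an iron-responsive element (-0.67 ± 0.13, adjusted p = 0.00938, and -0.54 ± 0.13, adjusted p = 0.0233), and Cdc42bpa (-0.48 ± 0.13, adjusted p = 0.0306, and -0.43 ± 0.13, adjusted p = 0.0483). The Epas1 call ended without Ercc1 -/D library 1 (adjusted p = 0.0829) in the first comparison and without NEMO DK Ercc1-/D library 1 (0.210) or 2 (0.128) in the second. Those of Cdc42bpa were kept in 3 and 1 of 8 such fits.

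Among 11 genes of heme and hemoglobin salvage, 3 were higher and 2 lower in Ercc1 -/D, and 2 higher and 2 lower in NEMO DK Ercc1-/D. Cd163, the macrophage receptor for hemoglobin bound to haptoglobin, was 11.96, 15.3, 10.3 and 9.84 CPM in WT, 3.41 and 4.58 CPM in Ercc1 -/D, and 4.96 and 5.51 CPM in NEMO DK Ercc1-/D. It fell by 1.56 ± 0.23 (adjusted p = 0.00322, kept with each library left out) and fell by 1.18 ± 0.23 (adjusted p = 0.0105, ended without library 1 or 2 of the group). Of the 8 Kupffer cell markers above, 0 were called lower by edgeR. The part of Kupffer cell number in the Cd163 values was not tested. Lrp1, a receptor for heme bound to hemopexin, fell from 1314 ± 40.4 CPM to 933 ± 141 (adjusted p = 0.0336, kept in 3 of 8 such fits) and 819 ± 12.9 (adjusted p = 0.0118, kept in 6). The transporter genes for heme rose: Slc48a1 by 0.68 ± 0.13 (adjusted p = 0.00884) and 0.64 ± 0.13 (adjusted p = 0.0135), and Flvcr2 by 0.86 ± 0.17 in each comparison (adjusted p = 0.00993 and 0.0114). The Slc48a1 calls were kept in 7 and 6 of 8 leave-one-out fits and the Flvcr2 calls in 6 and 7. Flvcr1, a heme exporter gene, rose by 0.81 ± 0.17 in Ercc1 -/D (adjusted p = 0.0138, ended without library 1, 0.0858) and had 0.51 ± 0.18 in NEMO DK Ercc1-/D (adjusted p = 0.0790).

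Of 9 heme synthesis genes, 0 were called by edgeR in either comparison against WT. The smallest p was that of Alas2, the erythroid form of the first enzyme, with 0.68 ± 0.24 in NEMO DK Ercc1-/D (adjusted p = 0.0849). Erythroid markers summed to 232 to 484 CPM in WT, 122 and 162 CPM in Ercc1 -/D, and 99.6 and 245 CPM in NEMO DK Ercc1-/D. Of 7 tested, 0 were higher and 2 lower in Ercc1 -/D, and 0 higher and 0 lower in NEMO DK Ercc1-/D. Alas2 is 1 of these markers, and its change in NEMO DK Ercc1-/D had the opposite sign to the list median of -1.20. Erfe, the erythroid hormone gene that suppresses hepcidin, was too low to test (at most 0.064 CPM as a group mean). Of 17 genes of mitochondrial iron and iron-sulfur clusters, 0 rose and 3 fell in Ercc1 -/D (Lyrm4, Isca2 and Cisd1), and 0 rose and 2 fell in NEMO DK Ercc1-/D (Lyrm4 and Abcb10). Lyrm4, a subunit of the cysteine desulfurase complex that makes the clusters, fell from 7.78 ± 0.74 CPM to 4.09 ± 0.12 (adjusted p = 0.00600, kept with each library left out) and 5.03 ± 0.19 (adjusted p = 0.0285, kept in 5 of 8 such fits). Isca2 (-0.36 ± 0.10, adjusted p = 0.0332) and Cisd1 (-0.50 ± 0.15, adjusted p = 0.0466), cluster assembly and outer-membrane cluster protein genes, were kept in 1 and 2, and Abcb10, an inner-membrane transporter gene (-0.67 ± 0.17, adjusted p = 0.0269), in 6.

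**Figure D5:**
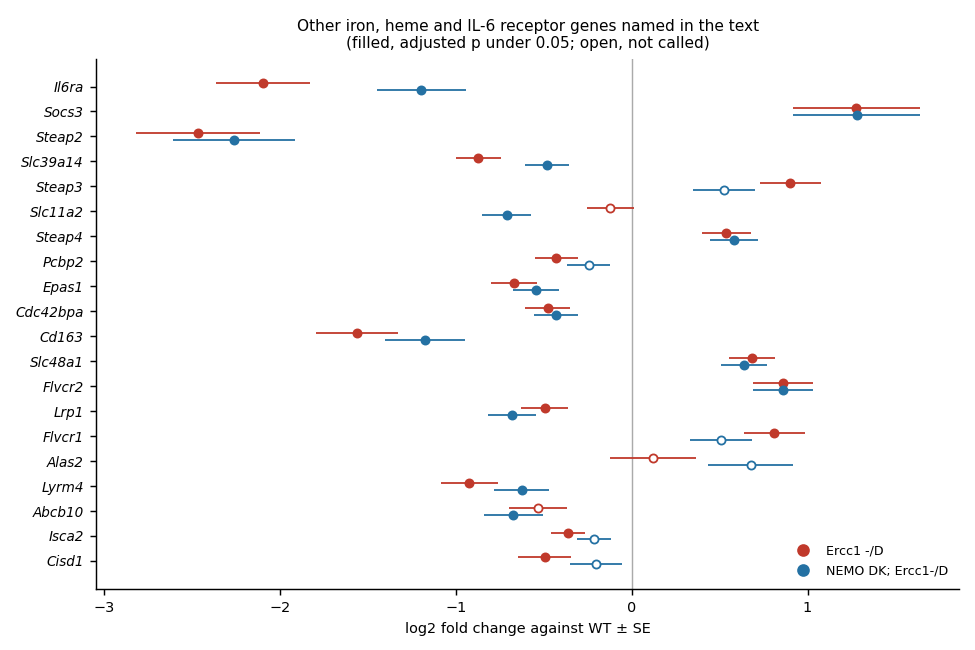
Log2 fold change against WT with its standard error for the other named genes of iron, heme and IL-6 receptor pathways, red for Ercc1 -/D and blue for NEMO DK Ercc1-/D, filled where the adjusted p is under 0.05. Il6ra, Steap2 and Cd163 lie farthest to the left, with changes from -1.18 to -2.47.

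Per kilobase of annotated exon, the levels of the members spanned from Trf at a median of 4348 CPM per kb over the 8 livers (3468 to 6075) to Tfrc at 2.05 (1.504 to 5.24). Hamp followed Trf with 2292 (1693 to 3461), then Ftl1 with 2033 (1439 to 2341), Fth1 with 341 (305 to 371), Tfr2 with 111 (102 to 134), Hamp2 with 77.0 (27.8 to 1300), Slc40a1 with 22.6 (14.9 to 27.96), Smad7 with 4.16 (2.85 to 7.94) and Bmp6 with 2.34 (1.76 to 3.47). The ranges of Hamp and Ftl1 overlapped, as did those of Bmp6 with Smad7 and with Tfrc, and that of Hamp2 reached across Tfr2 and Fth1. The values of Tfrc, Bmp6 and Smad7 rested on 149 to 1035 counts per library.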

How the data were processed

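Stranded total RNA libraries of 8 mouse livers were sequenced, per the labels' protocols. The deposited values are raw counts per gene. FastQC, HISAT2 2.1.0 and featureCounts with GRCm38 are named per the submitters' processing notes. The annotation release, the strand setting and the handling of multiply mapped reads are not given in the sources used here, so paralogs and antisense neighbours are less certain. Of the 55487 identifiers, 99.5% are in GENCODE M21.

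Tests of the counts used edgeR 4.0.16 (on limma 3.58.1) and, as an alternative, DESeq2 1.42.0, under R 4.3.3 with data.table (1.17.8). Sequences and plots used Biopython 1.88 and matplotlib 3.10.9 under Python 3.11.15. Genes were filtered with filterByExpr, scaled with TMM factors and fitted with 1 mean per group over all 8 libraries (quasi-likelihood, 5 residual and 3.67 prior degrees of freedom). Standard errors are the absolute log2 change divided by the square root of F, and 95% intervals use the same error. Centred log2 CPM used a prior count of 2. The fit was also run on counts simulated from its own estimates of spread, with changes set in the Ercc1 -/D group only. That outcome is not given here, and the simulation held neither the age difference nor a library like WT library 3. The labels do not say that libraries of a group were prepared separately, and p-values measure the spread between these libraries.

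The members and lists were chosen with earlier results of these data known. From each pathway list up to 5 genes called against WT were named by smallest p, or else the single smallest p. Atoh8, Smad6, Bmpr2, Smad5, Furin, Tmprss6 and the sex-biased and pseudogene lists were added after values were seen, and 1 gene of the female-biased list is not reported here and was left out of its sums and counts. Alternatives were RLE and upper-quartile factors, library size alone, other filters, DESeq2, a fit on just the compared pair of groups, a term for age, summed paralogs, both mutant groups averaged, and each library left out.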

Additional observations from a re-analysis of the deposited data

Results flagged for a closer look

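In 4 of the named genes 1 WT library stood apart from the other 3, by the ratio of its gap to the nearest library over the whole range (above Dixon's critical value, which chance gives in about 1 of 20 groups). Il6ra was 129 CPM in WT library 2 (ratio 0.910). Pcbp2 was 164 CPM in WT library 2 (ratio 0.967). Slc48a1 was 43.7 CPM in WT library 3 (ratio 0.924). Abcb10 was 51.4 CPM in WT library 3 (ratio 0.883). The ratio was computed for the 10 members and for each gene named by smallest p from the pathway lists. With that many genes screened, some ratios above the critical value can arise by chance. None of the 10 members passed it, Hamp2 included.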

How the results depend on the processing

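Of the values recomputed under alternatives for single members, 461 kept direction and side of the threshold, 25 gained a call, 12 lost one and 29 changed sign. In this tally the average of both mutant groups against WT, a different contrast, was set against Ercc1 -/D against WT. Its calls of Hamp2, Tfr2 and Trf are among those gained. The count of members called in Ercc1 -/D against WT (1) was 5 with DESeq2 (25.0% of all genes called), 3 with no filter (14.4%), 2 with library size alone (28.6%), 0 with age as a covariate (0.263%), 0 with only the 2 groups compared (15.5%) and 0 to 3 with 1 library left out (7.13% to 21.9%). In NEMO DK Ercc1-/D against WT (2) it was 4 with DESeq2 (22.5%) and 1 to 3 with 1 library left out (3.31% to 19.4%). Between the mutant groups it was 0 under every alternative.

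Changes of sign were all in values not called. In NEMO DK Ercc1-/D against Ercc1 -/D, age as a covariate gave -0.19 for Bmp6, 0.18 for Fth1, 0.14 for Tfr2, 0.84 for Tfrc and 0.018 for Trf, and Tfr2 was 5.22e-04 with the 1 CPM filter and 0.020 with upper-quartile factors. In Ercc1 -/D against WT, age gave -0.19 for Fth1 and -1.07 for Tfrc. In NEMO DK Ercc1-/D against WT, Fth1 was -0.0097 with age, Hamp was -0.23 when summed with Hamp2, Slc40a1 was 0.25 and Tfrc 0.24 with library size alone, and 0.080 and 0.066 with upper-quartile factors. With 1 library left out, Ercc1 -/D against WT ranged from -0.021 to 0.14 for Fth1 and from -0.43 to 1.37 for Tfrc. Between the mutant groups it ranged from -0.12 to 0.035 for Fth1, -0.11 to 1.32 for Hamp2, -0.025 to 3.61e-04 for Tfr2 and -1.40 to 0.40 for Tfrc. In NEMO DK Ercc1-/D against WT it ranged from -0.031 to 0.049 for Fth1, -0.037 to 0.34 for Hamp, -0.073 to 0.067 for Slc40a1 and -0.36 to 0.24 for Tfrc. The cause was not tested.

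Library size alone moved the median of all genes by 0.26 and 0.27 in the comparisons against WT and gave 3765 higher and 690 lower genes in Ercc1 -/D (1761 and 1482 with TMM), and 3508 and 490 in NEMO DK Ercc1-/D (1646 and 1154). Upper-quartile factors gave 2079 and 1141, and 2048 and 783. Age as a covariate left 24 higher and 17 lower genes in Ercc1 -/D. A lone library left in a group is assumed to vary like the others. No paired analysis was possible because the replicate numbers were given in accession order and pair no mice.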
